A study of Homo sapiens with 12 samples.

Results

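The estrogen receptor ESR1, the progesterone receptor PGR and 8 genes known as estrogen-responsive or secretory (AGR2, AGR3, PDZK1, CXCL12, GREB1, CA12, STC1 and STC2) were followed in human endometrial cancer cells exposed to copper. They are 10 of the 20332 genes in the deposited data and were picked by symbol. Earlier results of these libraries were known when they were picked. Among these were the low ESR1 and PGR levels, the copper response of KLE cells and part of the member values in Ishikawa cells with copper. RNA was sequenced from KLE and Ishikawa cells, both established endometrial carcinoma lines, after 24 h with 200 µM CuCl2 or without it. The groups were KLE with CuCl2, KLE untreated, Ishikawa with CuCl2 and Ishikawa untreated, with 3 libraries each described as independent biological replicates, 12 in all. The control cells are named both untreated and vehicle in the labels and are called untreated here. All 4 groups grew in the same serum-containing medium, DMEM/F12 with fetal bovine serum. One line stands for each of KLE and Ishikawa, so a difference between them is a difference between these cultures only.

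Estrogen binds its receptor, which then acts as a transcription factor on estrogen response elements, often helped by pioneer factors and coactivators. In the endometrium the receptor drives growth of the glandular epithelium and induces the progesterone receptor, which in turn sets the secretory phase. Ishikawa cells are widely used as a hormone-responsive line and KLE cells as a poorly responsive one. The secretory members act at several points: AGR2 and AGR3 are disulfide isomerases of the endoplasmic reticulum, CA12 is a zinc-dependent carbonic anhydrase of the cell surface, and STC1 and STC2 are secreted glycoproteins. CXCL12 is a chemokine that signals through CXCR4, PDZK1 is a scaffold for membrane transporters such as SCARB1, and GREB1 is an estrogen-induced partner of the receptor.

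Libraries held 14050275 to 25057003 counts, the highest in Ishikawa untreated 2, and 3 counts, the limit that a count of 0 allows, corresponded to 0.12 to 0.214 CPM (counts scaled to the depth of a library). The limit covers counting error only. All 9 epithelial marker genes, among them PAX8 and EPCAM, had counts in every library. Of 10 stromal fibroblast markers, the summed counts were 386 to 695 in KLE with CuCl2, 481 to 1063 in KLE untreated, 439 to 1053 in Ishikawa with CuCl2 and 306 to 815 in Ishikawa untreated. Ishikawa untreated 2 stood apart in part of this list, with 4 of the 10 stromal markers at 0. Most of its 306 stromal counts came from COL1A1, which had 184, 271 and 212 counts in the Ishikawa untreated libraries. The 7 leukocyte markers summed to 336 to 361 counts in KLE with CuCl2, 205 to 256 in KLE untreated, 124 to 165 in Ishikawa with CuCl2 and 95 to 102 in Ishikawa untreated, most of them from the lysosomal gene CD68. The 6 endothelial markers summed to 98 to 109 counts in KLE with CuCl2, 106 to 180 in KLE untreated, 166 to 217 in Ishikawa with CuCl2 and 92 to 123 in Ishikawa untreated. The part of these transcripts in the results below was not tested.

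AGR2 and AGR3 are paralogs that lie side by side on chromosome 7 (GRCh38), on the minus strand, AGR2 at 16791811 to 16833433 and AGR3 at 16859405 to 16881987, with 25971 bp between them. PDZK1 lies on the minus strand of chromosome 1 at 145670852 to 145708148, and how reads shared with its annotated pseudogene copy were assigned is not given. The 250 bases before a RefSeq start of these 3 genes are shown because the neighbouring paralogs were both lower in KLE cells than in Ishikawa cells without copper, while PDZK1 was higher. The sequences are from RefSeq (GRCh38.p14, minus strand, written 5′ to 3′), at chr7:16805000-16805249 for AGR2, chr7:16881984-16882233 for AGR3 and chr1:145707401-145707650 for 1 of 2 overlapping PDZK1 windows. These starts are RefSeq's, and those of AGR2 and PDZK1 lie inside the GENCODE spans given above, which reach farther upstream. Capitals mark AGGTCA or its reverse complement TGACCT, the core that many nuclear receptors, the estrogen receptor included, bind.
AGR2: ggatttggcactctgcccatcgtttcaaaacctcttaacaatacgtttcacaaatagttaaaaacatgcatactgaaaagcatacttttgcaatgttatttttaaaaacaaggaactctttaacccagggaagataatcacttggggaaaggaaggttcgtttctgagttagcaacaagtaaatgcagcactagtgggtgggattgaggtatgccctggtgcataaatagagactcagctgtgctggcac
AGR3: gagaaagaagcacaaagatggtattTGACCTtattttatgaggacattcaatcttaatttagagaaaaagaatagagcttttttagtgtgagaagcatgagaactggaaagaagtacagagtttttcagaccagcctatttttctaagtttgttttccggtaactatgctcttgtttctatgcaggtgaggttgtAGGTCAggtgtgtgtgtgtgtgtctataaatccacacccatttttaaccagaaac
PDZK1: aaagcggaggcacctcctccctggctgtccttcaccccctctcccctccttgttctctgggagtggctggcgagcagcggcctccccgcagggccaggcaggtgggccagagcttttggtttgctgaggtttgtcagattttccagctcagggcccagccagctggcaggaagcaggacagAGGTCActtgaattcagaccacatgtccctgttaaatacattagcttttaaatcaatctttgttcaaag
The AGR3 window held the core at positions -225 and -55 from the start, the PDZK1 window once and the AGR2 window not at all. Among all 34943 RefSeq windows of the same length, 12.1% held AGGTCA on either strand, and CXCL12 was the other member with it. The full estrogen response element palindrome (GGTCA, any 3 bases, then TGACC) was in 0.0401% of all windows and in none of the 16 windows of the 8 members that have one. A metal response element core (TGCACNC or TGCGCNC, either strand) was in 24.8% of all windows and, among the members, in those of CXCL12, ESR1, PGR and STC2. GREB1 and STC1 have no window in this set. A match is a string of letters, not a bound site, and the windows leave out distal elements.

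The 10 members spanned a wide range of levels, compared here in TPM, the authors' abundances scaled to transcript length and library depth. STC1 was the most abundant in all 4 groups, and its libraries did not overlap with those of the next gene. It stood at 210 ± 11.3 TPM in KLE with CuCl2, 525 ± 7.06 in KLE untreated, 267 ± 13.0 in Ishikawa with CuCl2 and 697 ± 4.38 in Ishikawa untreated (mean ± SD, n = 3 each). CA12, AGR2 and STC2 followed. CA12 was second in both KLE groups (73.7 ± 2.21 TPM with CuCl2 and 164 ± 0.659 TPM untreated) and AGR2 was second in both Ishikawa groups (69.8 ± 2.65 TPM with CuCl2 and 130 ± 7.56 TPM untreated; mean ± SD, n = 3 each). In KLE untreated, AGR2 and STC2 were neighbours in this order whose libraries overlapped (43.1 to 46.8 and 41.4 to 46.7 TPM). GREB1, PDZK1 and CXCL12 lay between 0.88 and 5.03 TPM on average except for GREB1 in Ishikawa untreated (5.22 to 7.09 TPM). AGR3 was a low gene in KLE cells and a moderate one in Ishikawa cells. By their means ESR1 and PGR were the lowest pair in every group, but their libraries were not always apart from those of other members. In KLE with CuCl2, AGR3 (0 to 0.796 TPM) overlapped ESR1 (0.138 to 0.409 TPM) and PGR (0.01 to 0.021 TPM). In Ishikawa untreated, CXCL12 (0 to 1.53 TPM) overlapped PGR (0.064 to 0.284 TPM) and ESR1 (0.015 to 0.238 TPM).

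**Figure D1:**
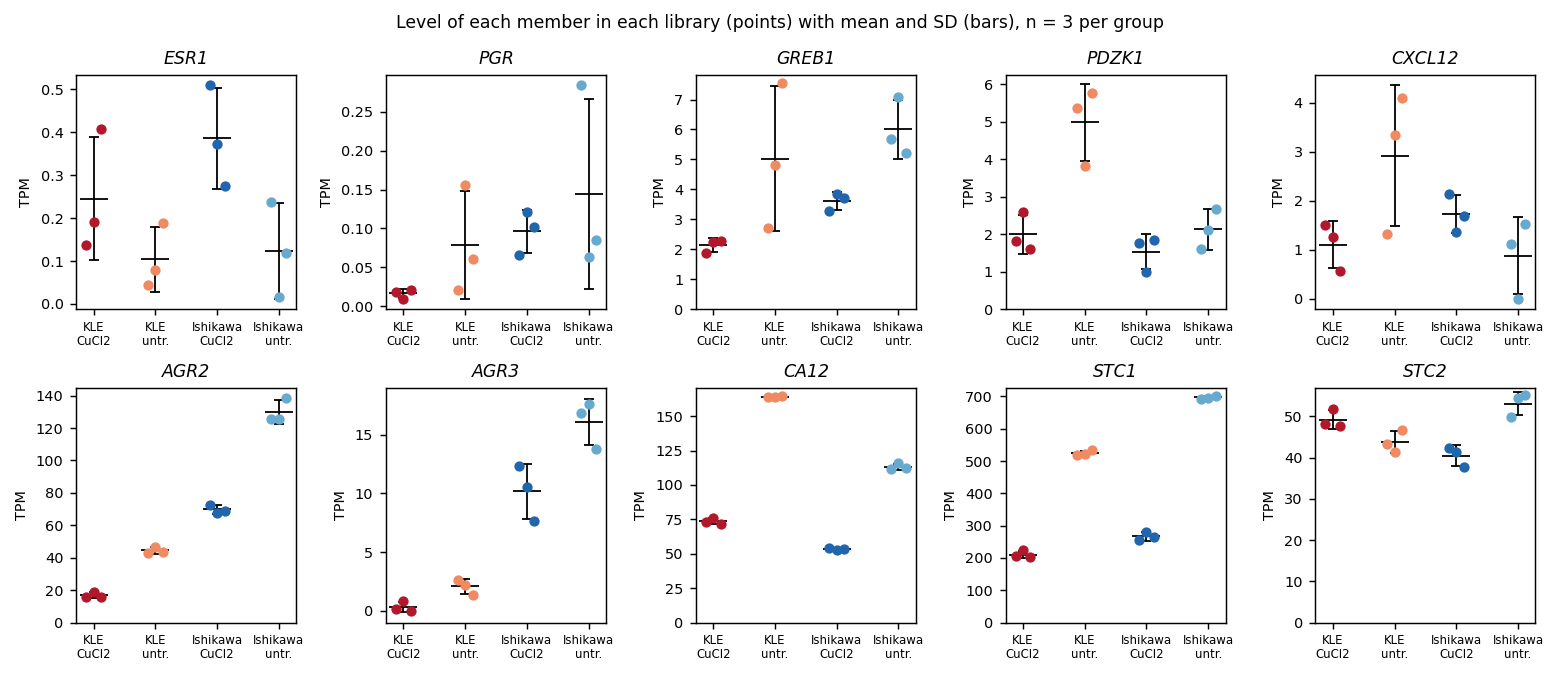
Level of each of the 10 genes in TPM in every library (points), with the mean (long bar) and SD (error bar) of the 3 libraries of a group; each panel has its own linear axis. AGR2, CA12 and STC1 show non-overlapping copper-treated and untreated libraries in both lines, whereas ESR1 and PGR stay under 0.6 TPM in every library.

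ESR1, the receptor itself (chromosome 6, 151656691 to 152129619, plus strand), was close to the limit of detection in both lines. It had 7, 9 and 14 counts in KLE with CuCl2 and 2, 4 and 9 in KLE untreated, and these groups overlapped. It had 28, 20 and 12 counts in Ishikawa with CuCl2 and 11, 1 and 6 in Ishikawa untreated, where every treated library was above every untreated one. As levels, Ishikawa cells stood at 0.386 ± 0.118 TPM with CuCl2 and 0.124 ± 0.112 TPM untreated, and KLE cells at 0.246 ± 0.144 TPM with CuCl2 and 0.104 ± 0.0758 TPM untreated (mean ± SD, n = 3 each). These levels were among the values that chose the members, so the lines are described and not tested. In Ishikawa cells the ESR1 log2 fold change with copper was 1.98 ± 0.60 SE. Only the treated group had all 3 libraries over the cut of the filter on low counts, and untreated library 1 was over it as well. At counts this low, no p is given for ESR1. The edgeR call was lost without Ishikawa CuCl2 library 1 (1.69) and with limma on log2(TPM + 1) (0.30). The value was 2.88 without Ishikawa untreated 1 and 1.26 without Ishikawa untreated 2. ESR1 overlaps SYNE1 on the opposite strand, and whether the authors' counting used strand is not given, so reads of SYNE1 could be among these counts.

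PGR, the progesterone receptor and a textbook target of estrogen in the endometrium (chromosome 11, 101029624 to 101130524, minus strand), was also close to the limit of detection. It had 2, 1 and 2 counts in KLE with CuCl2 and 2, 8 and 4 in KLE untreated. It had 5, 8 and 4 counts in Ishikawa with CuCl2 and 27, 10 and 6 in Ishikawa untreated, so the Ishikawa groups overlapped and library 1 held most of the untreated counts. PGR did not pass the count filter in any comparison and has no fold change.

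Without copper, KLE and Ishikawa cells were compared for the 8 members other than the receptors. All 8 passed the filter and 7 were called, 2 higher and 5 lower in KLE cells (edgeR adjusted p under 0.05), against 50.0% of the 13663 genes tested in that comparison; the median log2 fold change of the 8 was -0.28, and that of all genes was -0.00438. The libraries of the lines did not overlap for 7 of the 8, 2 above and 5 below, where 27.2% and 27.9% of the genes tested did so. The untreated libraries are also those that the copper comparisons use. AGR3 had 8, 9 and 7 counts in KLE untreated and 59, 103 and 58 in Ishikawa untreated. Its log2 fold change, KLE over Ishikawa, was -2.85 ± 0.32 SE. AGR3 passed the filter only through the Ishikawa libraries, so it could be called only as lower in KLE; no p is given for it, and its call is no support for the count above. In bulk RNA, fewer cells with a transcript and less transcript per cell cannot be told apart. AGR2, its neighbour, had 410, 511 and 430 counts in KLE untreated and 1226, 2018 and 1496 in Ishikawa untreated, with a log2 fold change of -1.50 ± 0.08 SE (edgeR adjusted p = 4.9e-14). Both paralogs were thus lower in every KLE library than in any Ishikawa library.

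GREB1 had 89, 109 and 113 counts in KLE untreated and 251, 428 and 253 in Ishikawa untreated. The log2 fold change was -1.25 ± 0.11 SE (edgeR adjusted p = 2.5e-09), and in CPM the groups did not overlap (6.27, 6.61 and 7.27 in KLE untreated, and 16.5, 16.4 and 15.3 in Ishikawa untreated). In TPM the groups did overlap, with 2.73, 4.81 and 7.55 in KLE and 5.69, 7.09 and 5.22 in Ishikawa, and the call was lost there (-0.29 with limma on log2(TPM + 1), adjusted p = 0.33). The number of counts per TPM, set against the median gene of the same library, was 1.71, 1.04 and 0.736 in KLE untreated and 2.2, 1.83 and 2.22 in Ishikawa untreated. The effective length behind the TPM of GREB1 thus varied between libraries, and its part in this result was not tested.

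The other secretory members split between the lines. CA12 stood at 326 ± 2.37 CPM in KLE untreated and 215 ± 2.18 CPM in Ishikawa untreated (mean ± SD, n = 3 each), with a log2 fold change of 0.60 ± 0.04 SE (edgeR adjusted p = 3.9e-12). PDZK1 had 73, 59 and 69 counts in KLE untreated and 24, 39 and 44 in Ishikawa untreated, and was higher in KLE by 1.21 ± 0.26 SE on the log2 scale (edgeR adjusted p = 0.00043). STC1 and STC2 were slightly lower in KLE cells, with log2 fold changes of -0.34 ± 0.04 SE (edgeR adjusted p = 9.1e-08) and -0.22 ± 0.06 SE (edgeR adjusted p = 0.0023). In all 4 of these genes the untreated libraries of the lines did not overlap.

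CXCL12 was the member of the 8 that was not called between the untreated lines, with 19, 51 and 63 counts in KLE and 16, 0 and 25 in Ishikawa (log2 fold change 1.88 ± 0.82 SE, edgeR adjusted p = 0.086). It was called without Ishikawa untreated 2 (1.14, edgeR adjusted p = 0.026), without Ishikawa untreated 3 (2.73, edgeR adjusted p = 0.047) and with limma on log2(TPM + 1) (1.09, adjusted p = 0.02). Its counts moved with the stromal marker DCN, a matrix proteoglycan of fibroblasts. DCN had 251, 168 and 67 counts in KLE with CuCl2, 133, 356 and 364 in KLE untreated, 296, 103 and 184 in Ishikawa with CuCl2 and 138, 0 and 204 in Ishikawa untreated. In the 11 libraries with DCN counts, CXCL12 had 9.96 to 21.4 counts per 100 DCN counts, and in Ishikawa untreated 2 both were at 0. The other stromal markers did not all follow DCN. In Ishikawa untreated 2, LUM, FAP and POSTN were at 0, and COL1A2 and COL3A1 had 3 and 8 counts. COL1A1 had 271 counts there, PDGFRA 8, PDGFRB 4 and THY1 12. The part of stromal transcripts in the CXCL12 values was not tested. ESR1 and PGR did not keep such a ratio: ESR1 had 1.12 to 20.9 and PGR 0.595 to 19.6 counts per 100 DCN counts in these 11 libraries. In Ishikawa untreated 2, where DCN was at 0, ESR1 had 1 count and PGR had 10. The part of stromal transcripts in the ESR1 and PGR values was not tested.

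**Figure D2:**
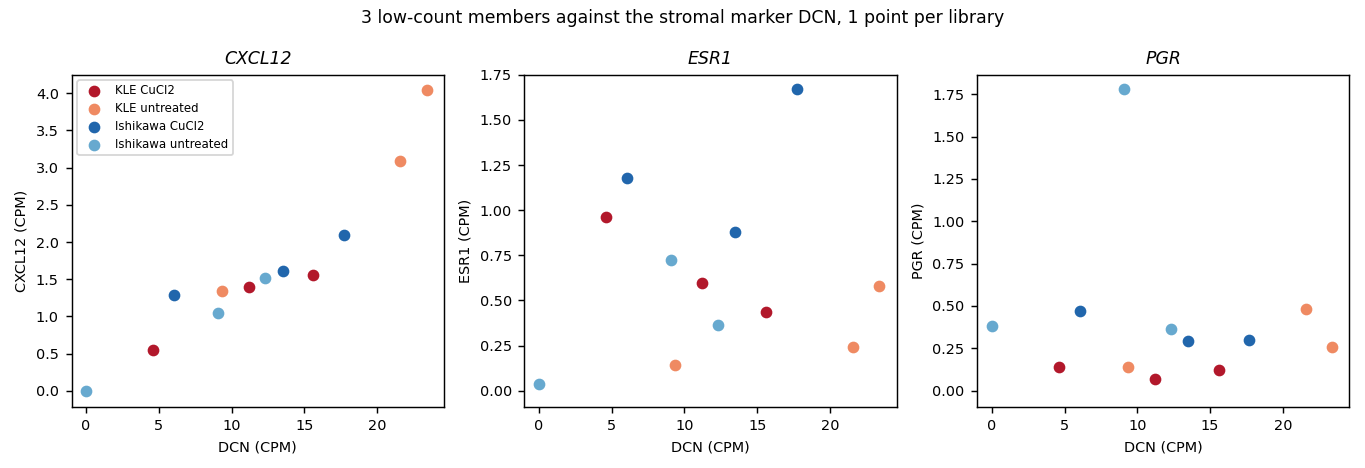
CXCL12, ESR1 and PGR (vertical axes, CPM) against the stromal marker DCN (horizontal axis, CPM), 1 point per library and colours for the 4 groups. CXCL12 rises with DCN across libraries of both lines, while ESR1 and PGR show no such order.

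With copper, KLE cells showed lower levels of most members. Since that response was part of what chose the members, the values are given as a description without p. Of the 10 members, 7 passed the count filter and 7 were called, 1 higher and 6 lower, beside 50.8% of the 13031 genes tested (25.6% higher and 25.2% lower); the median log2 fold change of the 7 was -1.26 and that of all genes was -0.00167. In CPM, 1 member had all treated libraries above all untreated ones and 7 had them all below, PGR and AGR3 included. Of the 13031 genes tested, which leave out PGR and AGR3, 28.4% and 28.3% did so. PGR had 0.138 CPM in its highest treated library and 0.141 CPM in its lowest untreated one, at 2 counts in each. Nothing is read from these numbers of members. AGR2 had 167, 186 and 147 counts in KLE with CuCl2 and 410, 511 and 430 in KLE untreated, a log2 fold change of -1.41 ± 0.09 SE. STC1 stood at 206, 223 and 202 TPM in KLE with CuCl2 and 520, 521 and 533 TPM in KLE untreated (log2 fold change -1.26 ± 0.03 SE). CA12 stood at 73.2, 76.1 and 71.8 TPM in KLE with CuCl2 and 164, 164 and 165 TPM in KLE untreated (log2 fold change -1.13 ± 0.04 SE). The treated libraries of these 3 genes were all below the untreated ones by a wide margin compared with the spread within a group.

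PDZK1 had 30, 30 and 21 counts in KLE with CuCl2 and 73, 59 and 69 in KLE untreated, with a log2 fold change of -1.30 ± 0.23 SE. GREB1 had 61, 56 and 48 counts in KLE with CuCl2 and 89, 109 and 113 in KLE untreated (log2 fold change -0.89 ± 0.16 SE). AGR3, which did not pass the filter, had 1, 4 and 0 counts in KLE with CuCl2 and 8, 9 and 7 in KLE untreated; the groups did not overlap at very low counts. CXCL12 had 25, 21 and 8 counts in KLE with CuCl2 and 19, 51 and 63 in KLE untreated, and the groups overlapped (log2 fold change -1.27 ± 0.41 SE). Only the untreated group had all 3 libraries over the cut of the filter, and treated libraries 1 and 2 were over it as well. The call of CXCL12 was lost without KLE untreated 2, without KLE untreated 3 and without KLE CuCl2 library 2. STC2 was the exception in direction, with 48.2, 51.8 and 47.7 TPM in KLE with CuCl2 and 43.2, 41.4 and 46.7 TPM in KLE untreated (log2 fold change 0.15 ± 0.05 SE). That call was lost without KLE untreated 2, without KLE CuCl2 library 2 and on TPM.

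In Ishikawa cells, 9 of the 10 members passed the filter and 6 were called with copper, 5 lower and ESR1 higher, against 69.1% of the 13359 genes tested (33.8% higher and 35.3% lower). In CPM, 1 member had all treated libraries above all untreated ones and 5 had them all below, beside 32.1% and 40.8% of the genes tested. For ESR1 and CXCL12 only the treated group had all 3 libraries over the cut of the filter. With the share of all genes this high, the count is no result about the members. Their median log2 fold change was -0.32 and that of all genes was -0.0133. Part of these values was known when the members were picked, so the p-values below are not independent of that choice. STC1 stood at 255, 280 and 264 TPM in Ishikawa with CuCl2 and 693, 696 and 701 TPM in Ishikawa untreated, and fell with a log2 fold change of -1.19 ± 0.04 SE (edgeR adjusted p = 5.2e-12). CA12 stood at 54.3, 52.8 and 53.6 TPM with CuCl2 and 111, 116 and 113 TPM untreated (log2 fold change -0.90 ± 0.05 SE, edgeR adjusted p = 3.8e-10). For both genes the treated libraries lay below all untreated ones.

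GREB1 had 118, 114 and 112 counts in Ishikawa with CuCl2 and 251, 428 and 253 in Ishikawa untreated, and fell with a log2 fold change of -1.08 ± 0.11 SE (edgeR adjusted p = 8.5e-07). The value was -0.59 with limma on log2(TPM + 1), where the call stood, and the counts per TPM over the library median were 1.52, 1.25 and 1.57 with CuCl2 and 2.2, 1.83 and 2.22 untreated. AGR2 had 838, 741 and 659 counts with CuCl2 and 1226, 2018 and 1496 untreated, with a log2 fold change of -0.75 ± 0.07 SE (edgeR adjusted p = 3.8e-07). Ishikawa untreated 2 was the deepest library. Over genes with enough counts, the chi-square per degree of freedom between replicates was 8.45 and 12.9 for the pairs with this library. It was 2.73 for Ishikawa untreated 1 and 3, and 2.05 to 3.95 for the pairs of the other groups. The part of depth in these values was not tested. The CPM of AGR2 were 50.0, 43.5 and 48.2 with CuCl2 and 80.7, 77.1 and 90.2 untreated. For AGR2, Ishikawa untreated 2 thus did not stand apart once depth was scaled, although it did in part of the stromal markers. STC2 stood at 42.4, 41.4 and 37.6 TPM with CuCl2 and 49.8, 54.4 and 55.1 TPM untreated, with a small log2 fold change of -0.21 ± 0.06 SE (edgeR adjusted p = 0.0061).

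The 3 members tested and not called in Ishikawa cells were AGR3, PDZK1 and CXCL12. AGR3 had 60, 49 and 37 counts with CuCl2 and 59, 103 and 58 untreated (log2 fold change -0.24 ± 0.19 SE, 95% interval -0.62 to 0.13, edgeR adjusted p = 0.27). On log2(TPM + 1) the same gene was called (-0.63, limma adjusted p = 0.0081). PDZK1 had 24, 18 and 26 counts with CuCl2 and 24, 39 and 44 untreated (-0.32 ± 0.32 SE, 95% interval -0.94 to 0.29, edgeR adjusted p = 0.38), and CXCL12 had 35, 22 and 22 with CuCl2 and 16, 0 and 25 untreated (1.16 ± 0.94 SE, edgeR adjusted p = 0.32). For CXCL12 only the treated group had all 3 libraries over the cut of the filter, and its value was 0.42 without Ishikawa untreated 2.

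**Figure D3:**
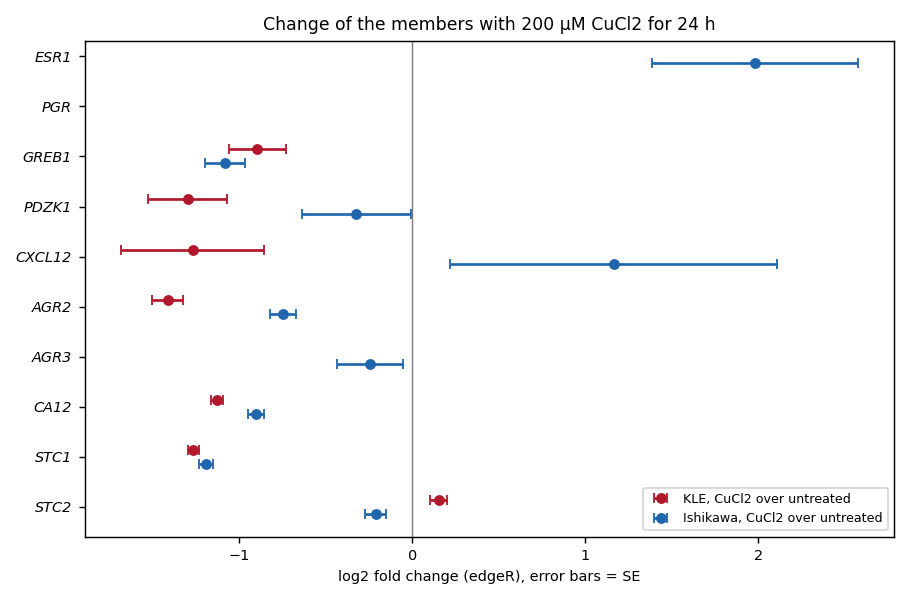
Log2 fold change with copper (CuCl2 over untreated, edgeR) of each member in KLE cells and Ishikawa cells, with SE as error bars; a member without a point did not pass the count filter of that line. AGR2, CA12, GREB1 and STC1 lie below 0 in both lines, and STC2 lies at 0.15 in KLE and -0.21 in Ishikawa.

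The difference of the copper responses, KLE minus Ishikawa, was read from a fit of all 12 libraries and is given with its SE and no p, because it contains the KLE response that chose the members. For STC1 the difference was -0.01 ± 0.05 SE (95% interval -0.12 to 0.09). AGR2 had a difference of -0.61 ± 0.12 SE, its fall being larger in KLE cells. STC2 had a difference of 0.42 ± 0.08 SE, from opposite signs in the lines. For CA12 it was -0.17 ± 0.06 SE and for PDZK1 -0.92 ± 0.40 SE. GREB1 differed by 0.24 ± 0.18 SE on counts and by -0.27 on log2(TPM + 1), so its sign rested on the scale. For the low genes the values were -1.87 ± 0.65 SE (AGR3), -2.38 ± 1.17 SE (CXCL12) and -0.90 ± 0.90 SE (ESR1).

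Genes with the most similar profile were sought for the 5 members with a mean of at least 5 TPM, by the root mean square difference of the 4 centred group means of log2(TPM + 1), over 10343 genes. For STC1 they were DBP, SPRY2 and LEMD1 (differences of 0.0684, 0.0818 and 0.0857 log2 units). SPRY2, an inhibitor of receptor tyrosine kinase signalling, stood at 64.7 ± 4.85 TPM in KLE with CuCl2 and 142 ± 1.86 TPM in KLE untreated, and at 72.1 ± 2.59 TPM in Ishikawa with CuCl2 and 206 ± 10.2 TPM in Ishikawa untreated (mean ± SD, n = 3 each). For AGR2 they were NCALD, STXBP6 and SORBS2 (0.116 to 0.133). For AGR3 they were SDC2, NPAS3 and HTRA3 (0.228 to 0.3), for CA12 SERPINF1, SLC40A1 and TRIM59 (0.11 to 0.159), and for STC2 FAM98C, MRPS25 and DOCK4 (0.0135 to 0.0266). SLC40A1 is the iron exporter ferroportin, with 5.74 ± 0.97 TPM in KLE with CuCl2 and 12.4 ± 2.56 TPM in KLE untreated, and 3.66 ± 0.294 TPM in Ishikawa with CuCl2 and 10.9 ± 0.307 TPM in Ishikawa untreated (mean ± SD, n = 3 each). The likeness is a description over 4 group means.

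Other genes of the hormone pathway were read from 6 lists of 112 genes in all. In Ishikawa cells the shares of calls below stand beside the 69.1% of all genes, and in KLE cells beside the 50.8%. Of 13 steroid and related nuclear receptors, 10 were tested in each line. With copper, 1 rose and 6 fell in KLE cells, and 0 rose and 6 fell in Ishikawa cells. The KLE calls were 3 lower without KLE CuCl2 3, and 0 higher with limma on TPM. The 3 most abundant were the membrane progesterone receptor components PGRMC1 and PGRMC2 and the orphan receptor NR2F6. PGRMC1 stood at 292 ± 7.88 TPM in KLE with CuCl2 and 323 ± 6.65 TPM in KLE untreated (mean ± SD, n = 3 each; log2 fold change -0.11 ± 0.03 SE, edgeR adjusted p = 0.0047). PGRMC2 was called in KLE cells too (-0.13 ± 0.05 SE, edgeR adjusted p = 0.018), a call lost with DESeq2 (adjusted p = 0.054), with limma on TPM (adjusted p = 0.15) and without KLE untreated 2, KLE CuCl2 2 or KLE CuCl2 3. In Ishikawa cells neither was called by edgeR (PGRMC1 -0.07 ± 0.04 SE, adjusted p = 0.15; PGRMC2 -0.05 ± 0.06 SE, adjusted p = 0.51), and both were called lower on library totals (adjusted p = 0.00028 and 0.0093). NR2F6 was called lower in Ishikawa cells (-0.46 ± 0.17 SE, edgeR adjusted p = 0.042), a call lost without a count filter and when Ishikawa untreated 1 or any treated library was left out.

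ESR2, the second estrogen receptor, was at 0.823 ± 0.0404 TPM in KLE with CuCl2, 0.765 ± 0.0731 in KLE untreated, 0.802 ± 0.106 in Ishikawa with CuCl2 and 0.865 ± 0.116 in Ishikawa untreated (mean ± SD, n = 3 each), and was called in neither line. NR2F1, an orphan receptor named here after its values were seen, fell in both lines. It had 158, 161 and 148 counts in KLE with CuCl2 and 380, 432 and 395 in KLE untreated (log2 fold change -1.35 ± 0.09 SE, edgeR adjusted p = 1.4e-16). It had 112, 124 and 78 counts in Ishikawa with CuCl2 and 313, 604 and 364 in Ishikawa untreated (-1.68 ± 0.11 SE, edgeR adjusted p = 6.1e-09). The treated libraries lay below all untreated ones in both lines.

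Of 17 cofactors of the estrogen receptor, 13 were tested in each line. In KLE cells 0 rose and 6 fell (median log2 fold change -0.11), and 3 were called lower with limma on TPM. In Ishikawa cells 6 rose and 2 fell on the main scaling, but 2 rose and 4 fell on library totals, which moved the median of all genes in that line to -0.167. With limma on TPM 2 were called higher in that line. XBP1, the unfolded protein response factor that also binds the receptor, had a log2 fold change of -0.12 ± 0.04 SE in KLE (edgeR adjusted p = 0.0095) and 0.21 ± 0.06 SE in Ishikawa (edgeR adjusted p = 0.0045), and the Ishikawa call was lost on library totals (adjusted p = 0.42). The KLE call of XBP1 was lost without KLE untreated 3 or KLE CuCl2 1. The corepressor NCOR1 fell in both lines, with -0.16 ± 0.04 SE in KLE (edgeR adjusted p = 0.00094) and -0.17 ± 0.05 SE in Ishikawa (edgeR adjusted p = 0.0069); the KLE call was lost with limma on TPM (adjusted p = 0.14). The coactivator EP300 was called in Ishikawa cells (0.23 ± 0.05 SE, edgeR adjusted p = 0.00039), a call lost on library totals (adjusted p = 0.12).

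Of 30 other estrogen-responsive genes, 3 rose and 7 fell among 23 tested in KLE cells, and 7 rose and 12 fell among 25 tested in Ishikawa cells. The 3 most abundant did not share a direction in Ishikawa cells. SLC7A5, a large neutral amino acid transporter, stood at 669 ± 30.1 TPM in KLE with CuCl2 and 431 ± 12.6 TPM in KLE untreated (log2 fold change 0.66 ± 0.03 SE, edgeR adjusted p = 8.3e-22). CTSD, the lysosomal protease cathepsin D, rose in both lines (0.49 ± 0.04 SE, edgeR adjusted p = 8.7e-15 in KLE; 1.25 ± 0.14 SE, adjusted p = 0.0004 in Ishikawa). CCND1, the G1 cyclin D1, stood at 233 ± 6.22 TPM in Ishikawa with CuCl2 and 402 ± 13.0 TPM in Ishikawa untreated (mean ± SD, n = 3 each) and fell (-0.60 ± 0.04 SE, edgeR adjusted p = 1.1e-08), while in KLE its value was 0.01 ± 0.03 SE (edgeR adjusted p = 0.88). SLC7A5 rose in Ishikawa cells as well (0.82 ± 0.05 SE, edgeR adjusted p = 9.2e-10).

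Of 21 progestin and secretory phase genes of the endometrium, 11 were tested in each line. Of these, 5 rose and 3 fell in KLE cells, and 5 rose and 4 fell in Ishikawa cells. The KLE calls were 2 higher with limma on TPM and 3 higher without KLE CuCl2 3, and the Ishikawa calls were 8 higher without a count filter. The most abundant were SPP1 (osteopontin), the complement regulator CD55 and the extracellular glutathione peroxidase GPX3, and all 3 rose in both lines. SPP1 stood at 49.8 ± 1.67 TPM in KLE with CuCl2 and 36.1 ± 5.93 TPM in KLE untreated, and at 84.6 ± 2.45 TPM in Ishikawa with CuCl2 and 42.4 ± 1.78 TPM in Ishikawa untreated (mean ± SD, n = 3 each). Its log2 fold change was 0.51 ± 0.07 SE in KLE (edgeR adjusted p = 1.7e-07) and 1.10 ± 0.07 SE in Ishikawa (edgeR adjusted p = 4e-09). CD55 rose by 0.42 ± 0.05 SE in KLE (edgeR adjusted p = 3.9e-09) and 1.06 ± 0.06 SE in Ishikawa (edgeR adjusted p = 5.7e-10). GPX3 rose by 0.13 ± 0.05 SE in KLE (edgeR adjusted p = 0.016), which was lost on library totals (adjusted p = 0.074), on TPM and without KLE untreated 1, KLE CuCl2 2 or KLE CuCl2 3, and by 1.18 ± 0.06 SE in Ishikawa (edgeR adjusted p = 4.1e-10).

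Of 15 partners and paralogs of the members, 0 rose and 6 fell among 10 tested in KLE cells, and 2 rose and 7 fell among 12 tested in Ishikawa cells. SCARB1, the lipoprotein receptor held by PDZK1, stood at 50.0 ± 5.78 TPM in KLE with CuCl2 and 69.1 ± 3.14 TPM in KLE untreated, and at 57.0 ± 0.794 TPM in Ishikawa with CuCl2 and 95.4 ± 13.4 TPM in Ishikawa untreated (mean ± SD, n = 3 each). It fell in both lines (-0.38 ± 0.06 SE, edgeR adjusted p = 1.7e-07 in KLE; -0.44 ± 0.06 SE, adjusted p = 2.3e-05 in Ishikawa). DAG1 (dystroglycan) fell too (-0.14 ± 0.03 SE, edgeR adjusted p = 0.00042 in KLE; -0.44 ± 0.05 SE, adjusted p = 6.6e-07 in Ishikawa). TMED2, a cargo receptor of the early secretory pathway, fell in KLE cells (-0.18 ± 0.03 SE, edgeR adjusted p = 5.1e-06); in Ishikawa cells its value was -0.01 ± 0.05 SE (edgeR adjusted p = 0.88), and it was called lower on library totals (adjusted p = 0.0058).

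CXCR4, the receptor of CXCL12, and PAPPA2, a protease that stanniocalcins inhibit, were picked from this list after their values were seen. CXCR4 had 50, 37 and 42 counts in KLE with CuCl2 and 105, 135 and 120 in KLE untreated (log2 fold change -1.46 ± 0.17 SE, edgeR adjusted p = 1.2e-09). In Ishikawa cells it had 40, 34 and 29 counts with CuCl2 and 128, 215 and 168 untreated (-1.98 ± 0.17 SE, edgeR adjusted p = 8.3e-08). Unlike CXCL12, its treated libraries lay below all untreated ones in both lines. PAPPA2 had 20, 30 and 26 counts in Ishikawa with CuCl2 and 0, 0 and 1 in Ishikawa untreated, and passed the filter only through the treated libraries, so no p is given; in KLE cells it had 0, 2 and 5 with CuCl2 and 1, 1 and 0 untreated.

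Of 16 genes that make or inactivate estrogen, 0 rose and 2 fell among 11 tested in KLE cells, and 4 rose and 3 fell among 11 tested in Ishikawa cells. The most abundant were 3 hydroxysteroid dehydrogenases, and none was called in KLE cells (HSD17B4 -0.07 ± 0.04 SE, HSD17B10 -0.03 ± 0.05 SE, HSD17B12 -0.08 ± 0.04 SE; edgeR adjusted p = 0.1, 0.56 and 0.079), though library totals called HSD17B4 and HSD17B12 lower (adjusted p = 0.022 and 0.015). In Ishikawa cells HSD17B12 rose (0.34 ± 0.06 SE, edgeR adjusted p = 0.00012). HSD17B4 was called higher there (0.13 ± 0.04 SE, edgeR adjusted p = 0.014) with a value of -0.02 on library totals, and the call was lost without Ishikawa untreated 1 or Ishikawa CuCl2 3. HSD17B10 was called lower (-0.15 ± 0.06 SE, edgeR adjusted p = 0.032), a call lost with DESeq2 (adjusted p = 0.08), with RLE factors and without Ishikawa untreated 2, Ishikawa CuCl2 2 or Ishikawa CuCl2 3. CYP19A1, aromatase, which makes estrogen from androgens, was picked after its values were seen. It had 46, 45 and 46 counts in Ishikawa with CuCl2 and 0, 2 and 1 in Ishikawa untreated, and it too passed the filter only through the treated libraries. In KLE cells, where it did not pass the filter, it had 9, 8 and 4 counts with CuCl2 and 0, 2 and 1 untreated.

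**Figure D4:**
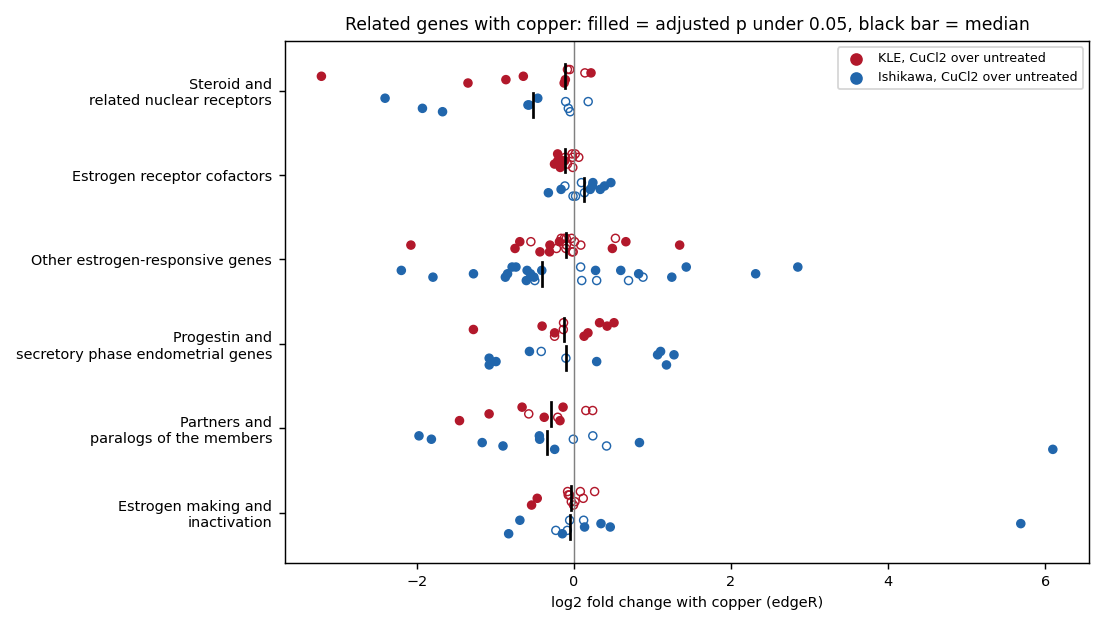
Log2 fold change with copper (CuCl2 over untreated, edgeR) of every tested gene of the 6 related lists in KLE and Ishikawa cells; filled points have an adjusted p under 0.05 and black bars are list medians. The list medians lie between -0.52 and 0.13.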

How the data were processed

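Poly(A) RNA of 12 libraries was sequenced as 150 bp paired-end reads; TRIzol extraction and oligo(dT) enrichment are given per the labels' protocols. HISAT2 2.1.0, RSEM, Bowtie2 2.2.8, fastp 0.18.0, R 4.2.2 and DESeq2 are named, with build GRCh38.p14, per the submitters' processing notes; what each did, and whether counting used strand, is not stated there. The authors deposited whole counts per gene. They also deposited each expected count (12.8 to 14.1% of them fractional) and TPM, the unit too of the tables named for FPKM per the file headers. Whole counts were used for tests and TPM to compare levels between genes; CPM are counts scaled to TMM-adjusted library totals. Depth was 14050275 to 25057003 counts per library.

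Tests were edgeR 4.0.16 quasi-likelihood fits in R 4.3.3 (TMM, filterByExpr, robust, two-sided, Benjamini-Hochberg adjusted p under 0.05 over all genes tested), on 6 libraries for copper in a line and all 12 for the untreated lines and the difference of responses. The filter kept genes above 0.654 CPM (KLE), 0.599 CPM (Ishikawa) or 0.636 CPM (12 libraries) in at least 3 libraries, beside a minimum total. The SE is the absolute log2 fold change over the square root of F. The fits were tested on simulated data. Alternatives were RLE factors, library totals, CPM above 1 in 3 libraries, no filter, DESeq2 1.42.0, limma 3.58.1 on log2(TPM + 1) and log2(TPM + 0.1), a replicate block and leaving out each library.

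The members and lists were chosen with earlier results of these data known. No p is given for the members in KLE with copper, the comparison behind their choice. None is given for ESR1, which was close to the limit of detection. AGR3 passed the filter between the untreated lines only through the Ishikawa libraries, where it is high, and has no p there. Member values in Ishikawa with copper were partly known too, so their p-values are not independent of the choice. The p-values of list genes, in KLE with copper too, come from fits over all genes and are not independent of those earlier results. Named genes were all members, the 3 genes of each list with the highest mean TPM, and the 3 nearest profiles; others are marked as chosen after their values were seen. Of 112 list genes all were in the tables, 2 under a newer symbol. Gene positions are from GENCODE (GRCh38), matched by Ensembl ID for all 10 members.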

Additional observations from a re-analysis of the deposited data

Results flagged for a closer look

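STC2, the secreted stanniocalcin, had opposite signs with copper in the lines, with a log2 fold change of 0.15 in KLE cells and -0.21 in Ishikawa cells (edgeR). All 3 copper-treated KLE libraries were above all untreated KLE libraries in CPM, and all 3 copper-treated Ishikawa libraries were below all untreated Ishikawa libraries. In KLE cells the margin was narrow, with 90.3 CPM in the lowest treated library and 89.4 CPM in the highest untreated one. The KLE call was lost without KLE untreated 2, without KLE CuCl2 2 and on TPM. The difference was not tested. Both changes were small beside those of STC1, its paralog, which was lower with copper in both lines.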

How the results depend on the processing

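The number of members called kept within 1.5 times its value under every alternative run: 5 to 8 in KLE with copper (7 reported), 5 to 7 in Ishikawa with copper (6 reported) and 6 to 8 between the untreated lines (7 reported). Leaving out 1 library at a time gave 5 to 7, 5 to 6 and 7 to 8. No direction of a called member reversed. Library totals left all Ishikawa member calls in place, but moved the median of all genes in that line to -0.167 and the share of its calls that were higher to 35.7%, against 48.9% with TMM. AGR2, CA12, STC1 and GREB1 were called lower with copper in both lines under all 14 alternatives of each fit. With CPM above 1 in 3 libraries ESR1 was not tested. The value of PDZK1 in KLE was -0.99 on log2(TPM + 1), that of GREB1 in KLE -1.09 on log2(TPM + 0.1). The difference of responses of CA12 was -0.08 on both TPM scales and -0.24 without Ishikawa CuCl2 2. That of AGR3 was -0.61 on log2(TPM + 1), -3.41 without KLE CuCl2 2 and -1.38 without KLE CuCl2 3, that of GREB1 was -0.27 and -0.38 on the TPM scales, and that of ESR1 was -1.81 without Ishikawa untreated 1. The replicate numbers were not taken to pair the samples. Same-numbered libraries correlated by 0.0675, 0.192 and 0.0942 in Ishikawa and -0.0822, -0.036 and -0.0974 in KLE. The best library of another number gave 0.0762, -0.0727 and 0.00763 in Ishikawa and 0.0647, 0.0336 and 0.0808 in KLE. For Ishikawa replicates 2 and 3 the same number was thus the closer one. With the replicate block 6 members were called in KLE (CXCL12 was lost), 6 in Ishikawa and 7 between the untreated lines. Depth limits ESR1, PGR and, in KLE, AGR3, whose libraries held few counts.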

Other observations

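EGR3 and MYB, transcription factors on the list of other estrogen-responsive genes, were picked after their values were seen. EGR3 had 352, 411 and 293 counts in Ishikawa with CuCl2 and 34, 105 and 50 in Ishikawa untreated (log2 fold change 2.85 ± 0.16 SE, edgeR adjusted p = 8.2e-10), and 64, 46 and 41 in KLE with CuCl2 and 41, 67 and 59 in KLE untreated (-0.13 ± 0.21 SE, edgeR adjusted p = 0.65). MYB had 61, 43 and 45 counts in Ishikawa with CuCl2 and 229, 394 and 250 in Ishikawa untreated (-2.20 ± 0.14 SE, edgeR adjusted p = 3.7e-09), and 102, 113 and 99 in KLE with CuCl2 and 130, 202 and 184 in KLE untreated (-0.69 ± 0.13 SE, edgeR adjusted p = 1.9e-05). The difference between the lines was not tested for either gene.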
